A study of Mus musculus with 6 samples.

Results

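Proteasome genes were examined in primary mouse proximal tubular epithelial cells given the ferroptosis inducer erastin2. The members were all genes whose symbol begins with Psma, Psmb, Psmc, Psmd, Psme, Psmf or Psmg followed by a digit, which gave 50 of the 24421 genes in the deposited table. These are the subunits of the 20S core, the 19S cap, the activators and the dedicated assembly factors. The rule also caught Psmc3ip, a meiotic recombination factor that is no proteasome gene and is given apart. A gene was tested when it reached 1 FPKM (fragments per kilobase of gene, scaled to sequencing depth) in at least 3 of the 6 libraries. This left 11559 genes, among them 46 members.

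The study compared kidney proximal tubular cells labelled as knocked out for Atg5, a gene needed for autophagosome formation, with cells that carry the floxed gene, by RNA sequencing. The groups were 3 libraries labelled Atg5KO and 3 control libraries labelled Atg5F/F, here KO 1 to 3 and F/F 1 to 3 and, as groups, KO-labelled and F/F-labelled. All 6 came from cultured primary kidney cells treated with 20 µM erastin2 for 24 h, so no untreated level is known. The labels give neither the agent that deleted Atg5 nor the animal or culture behind each library, and the p-values therefore speak of the spread among 6 libraries, part or all of which may be technical.

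The 26S proteasome degrades proteins tagged with ubiquitin. Its 20S core stacks rings of alpha subunits, which gate the entrance, around rings of beta subunits, of which 3 kinds cut peptide bonds; the 19S cap binds ubiquitin, unfolds the substrate with a ring of ATPases and removes the tag. In cells exposed to interferon the 3 catalytic beta subunits can be replaced by Psmb8, Psmb9 and Psmb10, which gives the immunoproteasome. Autophagy is the other main route of protein breakdown, and the transcription factors NRF1 (Nfe2l1) and NRF2 (Nfe2l2) are known to drive proteasome genes through antioxidant response elements.

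Most subunits of the standard proteasome had lower transcript levels in the KO-labelled cells, and the decreases were small. Of the 31 tested subunits of the constitutive 20S core and 19S cap with Psm symbols, 24 fell and none rose (limma, Benjamini-Hochberg adjusted p under 0.05 over all 11559 genes). The called decreases in mean FPKM ran from 9.37% for the ATPase Psmc3 to 22.0% for Psmb5, the chymotrypsin-like catalytic subunit. The median log2 fold change of the 31 (Atg5KO minus Atg5F/F, on the log2(FPKM + 1) scale) was -0.21, beside 0.02 over all genes tested. The members that rose were Psme2b and Psme2, of the PA28 activator. In bulk RNA, less RNA per cell and fewer cells of a type cannot be told apart.

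Over all 46 tested members, Psmc3ip included, 27 fell (58.7%) and 2 rose (4.35%), where 17.9% of all genes tested fell and 21.3% rose. The KO-labelled and F/F-labelled values did not overlap for 30 members (65.2%), 28 lower and 2 higher in the KO-labelled libraries, beside 51.9% of all genes tested. When each library was left out in turn, calls were fewest without F/F 3, among the constitutive subunits and over all genes tested. Without F/F 3, the calls among the 31 constitutive subunits dropped to 17, all decreases, and their median log2 fold change was -0.20. Without each other library in turn the count was 22 to 24. Over all genes tested, leaving out F/F 3 took the genes called lower from 2073 to 1486 and those called higher from 2457 to 1779.

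**Figure D1:**
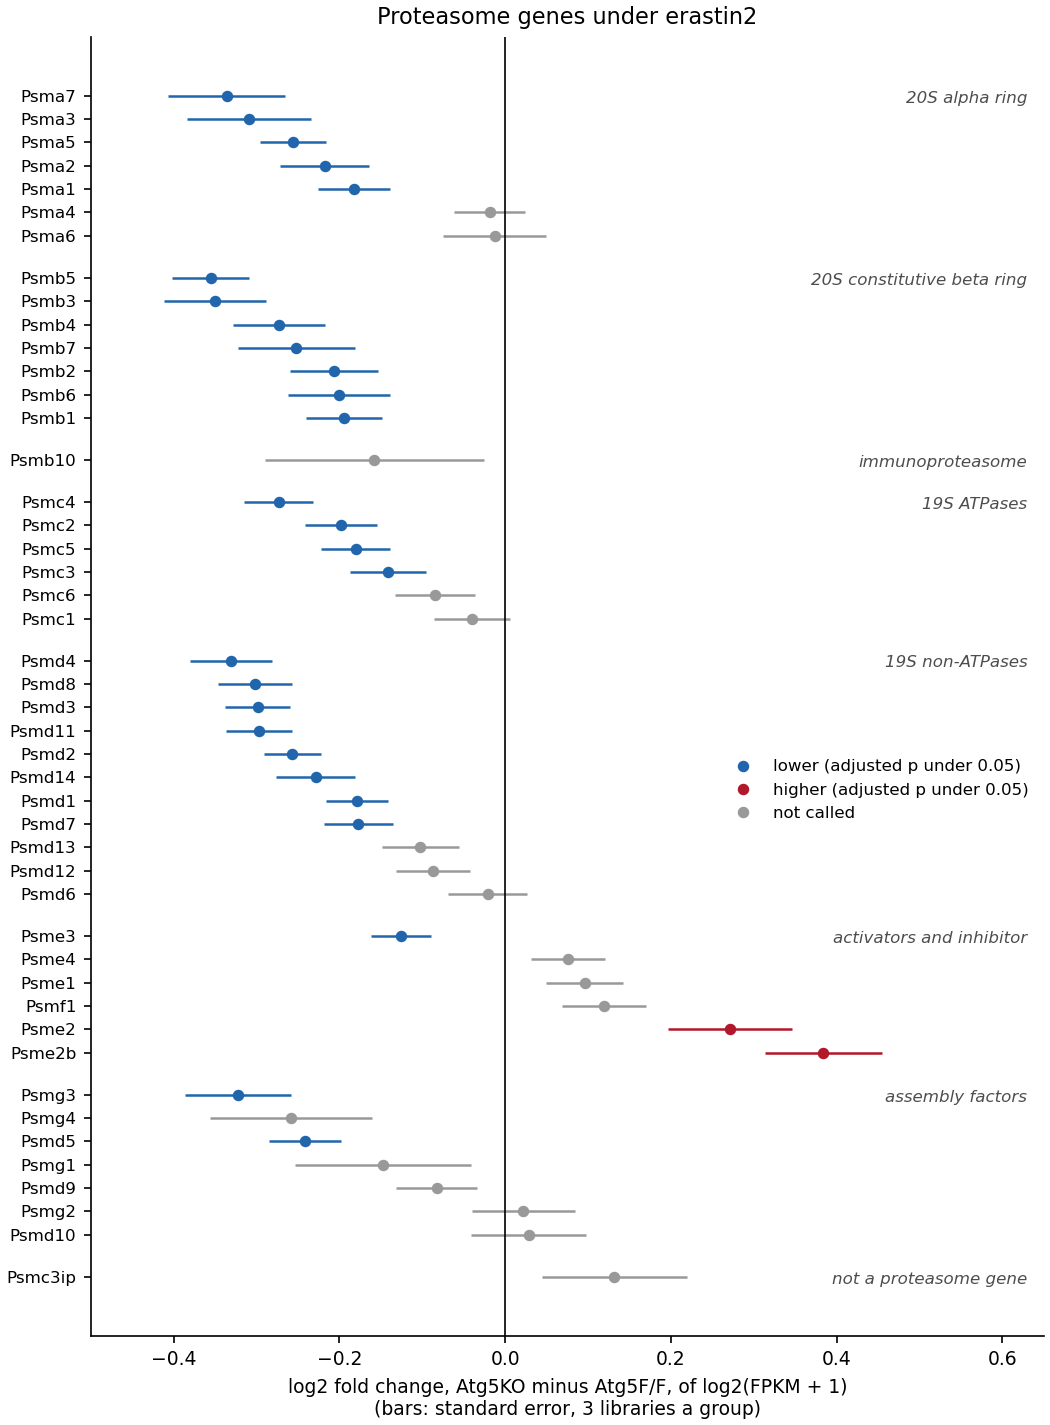
Log2 fold change (Atg5KO minus Atg5F/F) of every tested member with its standard error, 3 libraries a group, arranged by class; blue and red points are calls at an adjusted p under 0.05. Subunits of both 20S rings and of the 19S cap lie left of 0, between -0.36 and -0.01, and the activators Psme2 and Psme2b lie right of it at 0.27 and 0.38.

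The plot of fold changes by class shows fold changes below 0 for all 31 constitutive subunits, of different sizes. Promoter sequence is given here for 4 of them, those in which the search below found the core of the antioxidant response element. RefSeq (GRCm38.p6) had an entry for 42 of the 50 members, and the 250 bases before the start were searched on both strands for TGACNNNGC, the core of the antioxidant response element. It was found in 5 of the 42 members (11.9%), beside 11.5% of 27025 genes. Psmb5 and Psmb6, both lower in KO-labelled libraries, and Psmc6 and Psmd12, neither of them called, are printed from 5′ to 3′ on the gene's strand with the match in capitals; the match lies on the other strand in Psmc6 and Psmd12. The windows are chr14:54617996-54618245 on the minus strand for Psmb5, and on the plus strand chr11:70525107-70525356 for Psmb6, chr14:45329574-45329823 for Psmc6 and chr11:107479278-107479527 for Psmd12.
Psmb5: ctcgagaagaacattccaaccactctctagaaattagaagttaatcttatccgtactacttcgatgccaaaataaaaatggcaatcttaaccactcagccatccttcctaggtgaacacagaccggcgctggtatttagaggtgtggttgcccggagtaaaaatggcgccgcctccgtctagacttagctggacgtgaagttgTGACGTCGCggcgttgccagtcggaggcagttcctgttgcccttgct
Psmb6: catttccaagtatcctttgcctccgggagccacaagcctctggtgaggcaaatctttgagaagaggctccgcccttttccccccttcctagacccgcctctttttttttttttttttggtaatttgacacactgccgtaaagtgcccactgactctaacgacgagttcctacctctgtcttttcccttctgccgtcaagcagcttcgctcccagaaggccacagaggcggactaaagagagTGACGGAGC
Psmc6: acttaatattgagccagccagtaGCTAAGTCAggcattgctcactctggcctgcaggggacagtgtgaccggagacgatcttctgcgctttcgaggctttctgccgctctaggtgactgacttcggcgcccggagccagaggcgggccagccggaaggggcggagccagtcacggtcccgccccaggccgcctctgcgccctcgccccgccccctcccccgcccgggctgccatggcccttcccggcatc
Psmd12: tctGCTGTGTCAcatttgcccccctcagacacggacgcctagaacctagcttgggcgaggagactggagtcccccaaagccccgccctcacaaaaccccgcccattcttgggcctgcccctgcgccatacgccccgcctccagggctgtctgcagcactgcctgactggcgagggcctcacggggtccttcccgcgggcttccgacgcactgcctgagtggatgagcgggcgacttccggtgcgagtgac
The first base of the match is at -47 from the start in Psmb5, -9 in Psmb6, -227 in Psmc6 and -247 in Psmd12. The fifth member with a match was Psmd9, an assembly factor that was not called. Among constitutive subunits with an entry, 2 of the 18 that fell and 2 of the 7 that were not called held the core. A match describes letters and shows no binding, and no match says only that these letters are absent from the window. The core of the interferon-stimulated response element, read as GAAA, any 2 bases and GAAA again on either strand, was found in 3 of 42 members (7.14%), beside 3.46% of genes: Psmb3, Psmd4 and Psmd9. In Psmd9 the matches to the 2 motifs share no bases.

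The alpha ring, whose subunits form the gate of the core, fell in 5 of its 7 tested genes, beside 17.9% of all genes tested. Psma7 had 112, 119.9 and 96.7 FPKM in the KO-labelled libraries, against 139, 135 and 139.8 FPKM in the F/F-labelled ones (109.6 ± 11.8 FPKM in KO-labelled and 138 ± 2.77 FPKM in F/F-labelled libraries, SD, n = 3 each). All KO-labelled values were below all F/F-labelled values, and KO 3 was lowest (log2 fold change -0.34, SE 0.071, adjusted p = 0.006, limma). KO 3 was also lowest for Psma3, with 60.7, 60.8 and 49.5 FPKM in KO 1 to 3, against 72.3, 68.0 and 71.4 FPKM in F/F 1 to 3 (log2 fold change -0.31, SE 0.075, adjusted p = 0.012). Psma5 was the least abundant constitutive subunit. It had 36.5, 36.0 and 34.8 FPKM in KO 1 to 3, against 44.4, 41.4 and 42.9 FPKM in F/F 1 to 3, which did not overlap (log2 fold change -0.26, SE 0.040, adjusted p = 0.0013).

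Psma2 had 193, 177 and 169 FPKM in KO 1 to 3, against 211, 202 and 213 FPKM in F/F 1 to 3, again without overlap (log2 fold change -0.22, SE 0.054, adjusted p = 0.012). Without F/F 3 its adjusted p was 0.052, just past the threshold, at a log2 fold change of -0.20. Psma1 also fell (-0.18, adjusted p = 0.011) and likewise missed the threshold at 0.052 without F/F 3. Psma4 and Psma6 stood apart from the other alpha genes, with overlapping groups. Psma4 averaged 92.3 FPKM in KO-labelled and 93.5 FPKM in F/F-labelled libraries, and Psma6 135 FPKM in KO-labelled and 136 FPKM in F/F-labelled libraries. Their log2 fold changes, -0.02 and -0.01, turned positive under several settings. Without F/F 3 only 3 alpha genes were called. Psma8, the testis form, was not tested: its highest value was 0.228 FPKM, with 5 reads over the KO-labelled and 14 over the F/F-labelled libraries. It was listed at 0 in F/F 3, where 3 reads would be 0.0794 FPKM.

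All 7 constitutive beta subunits fell, beside 17.9% of all genes tested. This was the only class in which every tested gene was called lower. Psmb5 (chr14:54614119-54618022, minus strand), the chymotrypsin-like subunit and the main target of proteasome inhibitor drugs, had 126, 127 and 117 FPKM in the KO-labelled libraries, against 153, 158 and 164 FPKM in the F/F-labelled ones (123 ± 5.54 FPKM in KO-labelled and 158 ± 5.47 FPKM in F/F-labelled libraries). The gap between the groups was larger than the spread within either (log2 fold change -0.36, SE 0.046, adjusted p = 5.0e-04, limma). The microRNA gene Mir686 shares 12.1% of the exonic bases of Psmb5 on the same strand. Psmb3 and Psmb4 are structural beta subunits. Psmb3 had 138, 133 and 117 FPKM in KO 1 to 3, against 165, 159 and 169.6 FPKM in F/F 1 to 3 (log2 fold change -0.35, SE 0.062, adjusted p = 0.0026). Psmb4 had 146, 141 and 126 FPKM in KO 1 to 3, against 170.1, 164 and 163 FPKM in F/F 1 to 3 (log2 fold change -0.27, SE 0.056, adjusted p = 0.0053). Neither overlapped between groups, and KO 3 was lowest for both.

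The other catalytic subunits fell with less margin. Psmb7, the trypsin-like subunit, had 158, 149.8 and 129 FPKM in the KO-labelled libraries, against 175, 168 and 176 FPKM in the F/F-labelled ones (145 ± 15.1 FPKM in KO-labelled and 173 ± 4.67 FPKM in F/F-labelled libraries; log2 fold change -0.25, SE 0.070, adjusted p = 0.021). The groups did not overlap, but KO 3 lay well below the other KO-labelled libraries, and without it the log2 fold change was -0.17. The adjusted p was 0.058 without F/F 1, 0.069 without F/F 3 and 0.059 with no filter. Psmb6, the caspase-like subunit, had 121, 133 and 111 FPKM in the KO-labelled libraries, against 137, 143 and 139.6 FPKM in the F/F-labelled ones (122 ± 11.1 FPKM in KO-labelled and 140.0 ± 2.79 FPKM in F/F-labelled libraries; log2 fold change -0.20, SE 0.062, adjusted p = 0.031). KO 2 came within a few FPKM of the lowest F/F-labelled value, and the call was lost without any 1 library other than KO 2: the adjusted p was 0.077 without KO 1, 0.062 without KO 3, 0.057 without F/F 1, 0.085 without F/F 2, 0.079 without F/F 3, 0.068 after quantile normalization and 0.073 with no filter.

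Of the remaining structural subunits, Psmb1 averaged 139 ± 7.71 FPKM in KO-labelled and 159 ± 0.262 FPKM in F/F-labelled libraries (log2 fold change -0.19, SE 0.046, adjusted p = 0.01) and kept its call under every setting run. Psmb2 fell by 0.21 on the log2 scale with an adjusted p of 0.015, which became 0.064 without F/F 3 and 0.06 after quantile normalization. Without F/F 3, 4 of the 7 beta genes were called. The constitutive beta genes were close to each other in level. The coefficient of variation between them was 10.3% to 12.8% in KO-labelled and 11.9% to 12.6% in F/F-labelled libraries, and the highest was 1.37 to 1.48 times the lowest in KO-labelled and 1.44 to 1.47 times in F/F-labelled libraries. In the alpha ring, by contrast, the same ratio was 4.85 to 5.29 in KO-labelled and 4.76 to 4.96 in F/F-labelled libraries. Psmb11, the thymus form, had 1 read over the KO-labelled and 1 over the F/F-labelled libraries, at most 0.0119 FPKM.

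**Figure D2:**
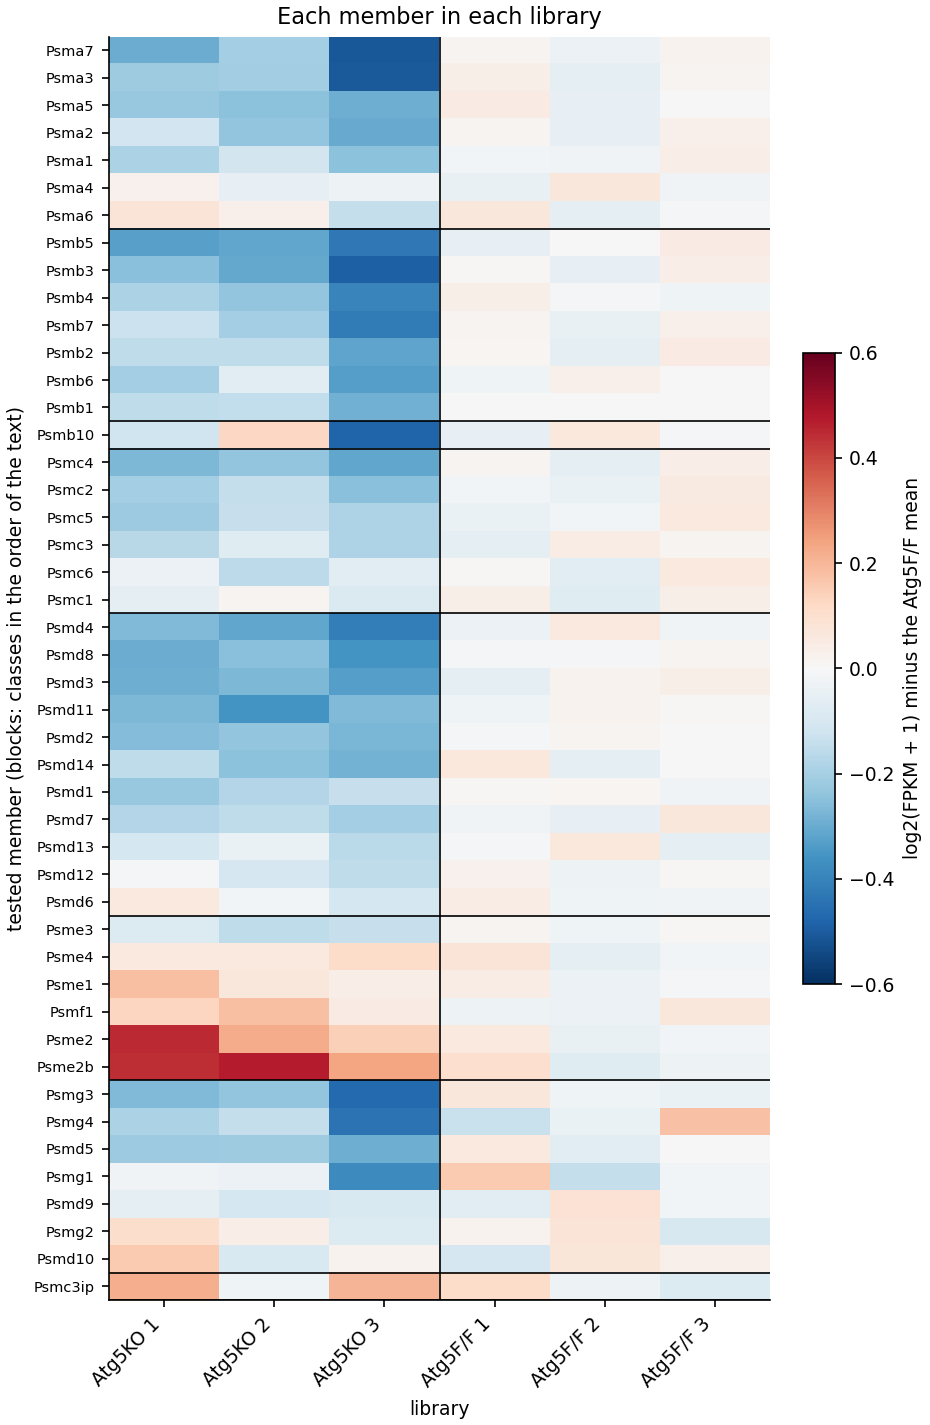
Deviation of each tested member in each library from its F/F-labelled mean, in log2(FPKM + 1), with KO-labelled libraries on the left and rows in the order of the plot by class. The 20S and 19S blocks are mostly blue in all 3 KO-labelled columns, KO 3 being lowest for 26 of the 31 subunits, and the F/F-labelled columns are near 0.

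The map of members by library shows that the KO-labelled libraries were not alike. KO 3 held the lowest KO-labelled value for 26 of the 31 constitutive subunits, KO 2 for 3 and KO 1 for 2. The same count over all genes tested was not made, so this is not shown to be particular to proteasome genes. KO 3 also had the strongest correlation with gene length (0.34, given below), and the constitutive subunits are short. The median deviation of the 31 from the F/F-labelled mean was -0.19, -0.17 and -0.28 in KO 1 to 3, against 0.01, -0.03 and 0.02 in F/F 1 to 3. Their summed level was 3621, 3614 and 3362 FPKM in KO 1 to 3, against 4095, 4053 and 4152 FPKM in F/F 1 to 3. Even the highest KO-labelled sum was below the lowest F/F-labelled one.

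The 19S cap fell in 12 of its 17 genes with Psm symbols, beside 17.9% of all genes tested. Among the 6 ATPases, which unfold the substrate, 4 fell. Psmc4 had 101, 103 and 98.0 FPKM in the KO-labelled libraries, against 124, 117 and 126 FPKM in the F/F-labelled ones (101 ± 2.71 FPKM in KO-labelled and 122 ± 4.43 FPKM in F/F-labelled libraries; log2 fold change -0.27, SE 0.041, adjusted p = 0.0011, limma). Psmc2 had 84.9, 88.7 and 82.1 FPKM in KO 1 to 3, against 96.7, 95.2 and 102 FPKM in F/F 1 to 3 (log2 fold change -0.20, SE 0.043, adjusted p = 0.0071). In both, all KO-labelled values lay below all F/F-labelled values, and both calls held under every setting run. Psmc5 had 125, 132 and 128 FPKM in KO 1 to 3, against 141, 144 and 151 FPKM in F/F 1 to 3 (log2 fold change -0.18, SE 0.042, adjusted p = 0.0093), and its adjusted p was 0.0502 without F/F 3. Psmc3 had 122, 130.2 and 120.4 FPKM in KO 1 to 3, against 131, 141 and 138 FPKM in F/F 1 to 3 (log2 fold change -0.14, SE 0.046, adjusted p = 0.038). Its groups barely separated and the call was easily lost: the adjusted p was 0.11 without KO 1, 0.09 without KO 3, 0.11 without F/F 2, 0.12 without F/F 3, 0.21 after quantile normalization, 0.066 with no filter and 0.066 with the length trend removed. Psmc6 and Psmc1 were not called and their groups overlapped, with log2 fold changes of -0.08 and -0.04. Without F/F 3, 2 of the 6 ATPases were called.

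Among the 11 non-ATPase subunits, 8 fell, beside 17.9% of all genes tested, and 8 were also called without F/F 3. Psmd4, a subunit that binds ubiquitin chains, had 149, 144 and 134 FPKM in the KO-labelled libraries, against 175, 186 and 176 FPKM in the F/F-labelled ones (142 ± 7.71 FPKM in KO-labelled and 179 ± 6.40 FPKM in F/F-labelled libraries; log2 fold change -0.33, SE 0.050, adjusted p = 0.0011). Psmd8, of the lid, was the most abundant member of all. It had 318, 329 and 304 FPKM in KO 1 to 3, against 389, 389 and 396 FPKM in F/F 1 to 3 (317 ± 12.3 FPKM in KO-labelled and 391 ± 4.07 FPKM in F/F-labelled libraries; log2 fold change -0.30, SE 0.045, adjusted p = 0.0011). For both genes the distance between the groups exceeded the range within each.

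The lid subunits Psmd3 and Psmd11 moved by nearly the same amount. Psmd3 had 77.1, 78.4 and 75.2 FPKM in KO 1 to 3, against 91.1, 96.3 and 97.2 FPKM in F/F 1 to 3 (log2 fold change -0.30, SE 0.039, adjusted p = 5.2e-04). Psmd11, whose product bridges lid and core, had 94.9, 89.2 and 95.2 FPKM in KO 1 to 3, against 112, 116 and 115 FPKM in F/F 1 to 3 (log2 fold change -0.30, SE 0.040, adjusted p = 5.7e-04). None of these 4 calls was lost under any setting. Smaller decreases were called for the scaffolds Psmd2 (-0.26, adjusted p = 5.8e-04) and Psmd1 (-0.18, adjusted p = 0.0056). The deubiquitinase Psmd14 (-0.23, adjusted p = 0.0057) and its partner Psmd7 (-0.18, adjusted p = 0.0099) fell too, Psmd7 with an adjusted p of 0.071 after quantile normalization. The lid subunits Psmd13, Psmd12 and Psmd6 were not called (adjusted p = 0.11, 0.16 and 0.75), with overlapping groups and log2 fold changes of -0.10, -0.09 and -0.02. Of the 8 lid genes with Psm symbols, 5 were called. Shfm1, which encodes a small lid subunit under another symbol, averaged 199 ± 18.1 FPKM in KO-labelled and 195 ± 16.4 FPKM in F/F-labelled libraries, with overlapping groups, and was not called (log2 fold change 0.03, SE 0.079, adjusted p = 0.8).

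The immunoproteasome subunits were at low levels in these cells. Only Psmb10 passed the filter for testing, and it was not called. Psmb8 (chr17:34197721-34201454, plus strand), the replacement for Psmb5, had 1.62, 1.498 and 0.940 FPKM in the KO-labelled libraries, against 0.654, 0.632 and 0.586 FPKM in the F/F-labelled ones (1.35 ± 0.361 FPKM in KO-labelled and 0.624 ± 0.0348 FPKM in F/F-labelled libraries, SD, n = 3 each). These rested on 39, 31 and 20 reads in KO 1 to 3, against 24, 12 and 16 reads in F/F 1 to 3. Every KO-labelled value was above every F/F-labelled value, and KO 3 was the lowest of its group. Only KO 1 and KO 2 reached 1 FPKM, so Psmb8 was not tested. A two-sided exact permutation test over the 6 libraries gave p = 0.1, the smallest that 3 against 3 allows. In the limma fit with no filter on low values the log2 fold change was 0.52 (SE 0.12, adjusted p = 0.022), where adding 1 to values this low shrinks the change. For comparison, the authors' deposited table gives a log2 fold change of 1.08 with a false discovery rate of 0.00218. For the other immunoproteasome genes it gives 0.68 for Psmb9 (false discovery rate 0.547) and -0.19 for Psmb10 (0.414).

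Psmb9, the replacement for Psmb6, had 0.692, 0.733 and 0.285 FPKM in the KO-labelled libraries, against 0.289, 0.320 and 0.444 FPKM in the F/F-labelled ones. These are 11, 10 and 4 reads in KO 1 to 3, against 7, 4 and 8 reads in F/F 1 to 3, and Psmb9 did not pass the filter for testing. The groups overlapped, KO 3 being the lowest library of all (two-sided exact permutation p = 0.4). Psmb10, the replacement for Psmb7, was the most abundant of the 3 and had 5.11, 6.24 and 3.76 FPKM in the KO-labelled libraries, against 5.41, 5.93 and 5.57 FPKM in the F/F-labelled ones. It also overlapped between groups (log2 fold change -0.16, SE 0.132, adjusted p = 0.37, limma). The log2 fold change of Psmb10 was 0.00 without KO 3. In the GENCODE vM21 annotation Psmb8 shares 14.7% of its 3381 exonic bases with the antisense gene Gm20496. Psmb9 shares 5.79% of its 3660 with Tap1. The FPKM values imply only 1223 bases for Psmb8 and 806 for Psmb9, so the shares among the counted bases are not known. Whether counting used strand is not given in the sources used here, so reads of these neighbours may be mixed.

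As a share of each exchange pair, Psmb8 made up 1.27%, 1.16% and 0.797% of Psmb8 plus Psmb5 FPKM in KO 1 to 3, against 0.427%, 0.398% and 0.357% in F/F 1 to 3. The log2 ratio of Psmb8 to Psmb5 was -6.55 ± 0.36 in KO-labelled and -7.99 ± 0.13 in F/F-labelled libraries (SD, n = 3 each), a difference of 1.44 with no overlap. Its two-sided exact permutation p was 0.1, the smallest this test can give with 3 against 3, or 0.3 adjusted over the 3 pairs. Psmb9 made up 0.566%, 0.547% and 0.256% of its pair with Psmb6 in KO 1 to 3, against 0.210%, 0.223% and 0.317% in F/F 1 to 3, which overlapped (difference 0.81, exact permutation p = 0.2, adjusted 0.3). Psmb10 made up 3.13%, 4.00% and 2.83% of its pair with Psmb7 in KO 1 to 3, against 3.00%, 3.42% and 3.06% in F/F 1 to 3 (difference 0.06, exact permutation p = 0.8, adjusted 0.8). The replacement form made up at most 4.00% of any pair in any library.

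**Figure D3:**
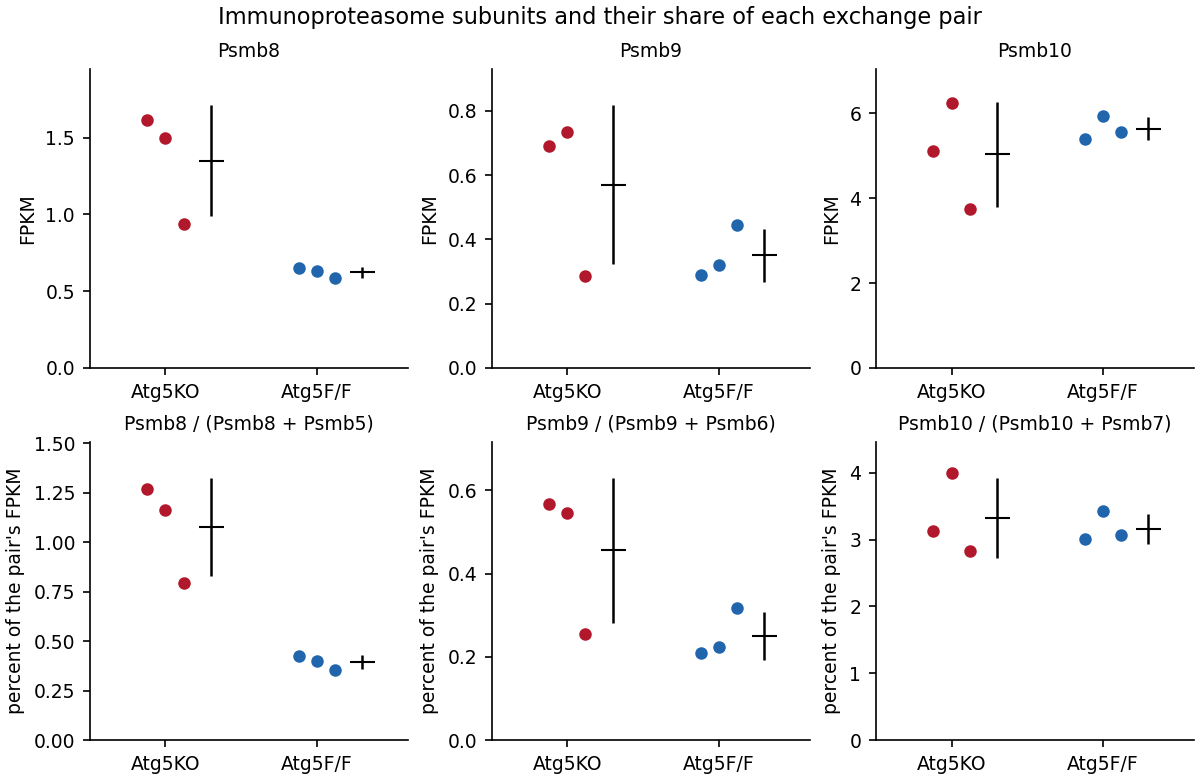
FPKM of Psmb8, Psmb9 and Psmb10 in each library (upper row) and their percentage of the exchange pair's FPKM (lower row), with mean ± SD beside 3 libraries a group. Psmb8 lies at 0.940 to 1.62 FPKM in KO-labelled and 0.586 to 0.654 FPKM in F/F-labelled libraries, and the other 2 genes overlap.

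The plot of the exchange pairs shows Psmb8 as the only replacement subunit whose groups separate. Immunoproteasome genes are highly expressed in leukocytes, so leukocyte markers are given beside them. The summed level of 12 such markers was 10.3 to 12.7 FPKM in KO-labelled and 10.96 to 13.3 FPKM in F/F-labelled libraries. The sum was carried by Csf1r and Cd68. Csf1r was at 6.45 to 7.73 FPKM in KO-labelled and 6.37 to 7.57 FPKM in F/F-labelled libraries. Cd68 was at 3.84 to 4.39 FPKM in KO-labelled and 4.52 to 5.49 FPKM in F/F-labelled libraries. Of the 12, 10 stayed below 1 FPKM in all libraries, and Adgre1, Itgam, Cd3e, Ly86, C1qa and C1qb were listed at 0. Ptprc, the pan-leukocyte marker, was at 0.0104 to 0.0447 FPKM in KO-labelled and 0.0341 to 0.0474 FPKM in F/F-labelled libraries.

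The activators and the inhibitor formed the only class with called increases. Of its 6 genes 2 rose and 1 fell, beside 21.3% and 17.9% of all genes tested. Psme2b (chr11:48945354-48946190, minus strand), a copy of the gene for the beta subunit of the PA28 activator, had 25.5, 25.9 and 21.9 FPKM in the KO-labelled libraries, against 19.9, 17.5 and 18.1 FPKM in the F/F-labelled ones (log2 fold change 0.38, SE 0.071, adjusted p = 0.0032, limma). Psme2 (chr14:55587441-55591113, minus strand), the gene for that subunit itself, had 21.2, 18.0 and 16.9 FPKM in the KO-labelled libraries, against 15.9, 14.8 and 15.1 FPKM in the F/F-labelled ones (log2 fold change 0.27, SE 0.075, adjusted p = 0.02). Neither gene overlapped between groups. Psme2b kept its call under every setting, whereas the adjusted p of Psme2 was 0.062 without F/F 2, 0.061 without F/F 3 and 0.056 with no filter. The longest transcripts of Psme2 and Psme2b are 99.4% identical over 794 aligned bases, so reads may have been split between them and each value alone is uncertain.

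Psme1, the alpha subunit of PA28, averaged 41.9 FPKM in KO-labelled and 39.1 FPKM in F/F-labelled libraries and was not called (log2 fold change 0.10, SE 0.046, adjusted p = 0.13). Psme3, the nuclear activator PA28 gamma, went the other way from Psme2, with 76.2, 72.5 and 73.2 FPKM in KO 1 to 3, against 81.7, 79.4 and 81.2 FPKM in F/F 1 to 3 (log2 fold change -0.13, SE 0.036, adjusted p = 0.024). The groups did not overlap, but the adjusted p was 0.068 without KO 2, 0.051 without KO 3, 0.067 without F/F 1, 0.087 without F/F 3 and 0.15 after quantile normalization. Psme4, the activator PA200, and Psmf1, the inhibitor PI31, were not called, with log2 fold changes of 0.08 (adjusted p = 0.21) and 0.12 (adjusted p = 0.093). The median of the class was 0.11.

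Of the 7 assembly factors, 2 fell and none rose, beside 17.9% and 21.3% of all genes tested. Psmg3, a chaperone of the alpha ring, had 24.4, 24.9 and 21.1 FPKM in the KO-labelled libraries, against 31.0, 29.0 and 28.7 FPKM in the F/F-labelled ones (log2 fold change -0.32, SE 0.064, adjusted p = 0.0046, limma). Psmd5, a chaperone of the ATPase ring, had 46.6, 46.8 and 44.1 FPKM in KO 1 to 3, against 56.5, 52.0 and 54.5 FPKM in F/F 1 to 3 (log2 fold change -0.24, SE 0.043, adjusted p = 0.0028). Neither overlapped, and both calls held under every setting. Psmg4, which works as a pair with Psmg3, averaged 9.61 ± 1.15 FPKM in KO-labelled and 11.7 ± 1.41 FPKM in F/F-labelled libraries without overlap but was not called (log2 fold change -0.26, SE 0.098, adjusted p = 0.064). Psmg1 and Psmg2, the other chaperone pair of the alpha ring, had log2 fold changes of -0.15 and 0.02 (adjusted p = 0.3 and 0.8). Psmd9 and Psmd10, chaperones of the ATPase ring, had -0.08 and 0.03 (adjusted p = 0.22 and 0.77). In the GENCODE vM21 annotation Psmd9 shares 25.5% of its 7248 exonic bases with the antisense gene Gm26745. The FPKM values imply only 2591 bases, so the share among the counted bases is not known. Psmc3ip, no proteasome gene, averaged 4.13 ± 0.473 FPKM in KO-labelled and 3.68 ± 0.330 FPKM in F/F-labelled libraries (log2 fold change 0.13, SE 0.087, adjusted p = 0.26).

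Gene length moved with the libraries. The Spearman correlation across genes between length and a library's deviation from the gene mean was 0.11, 0.04 and 0.34 in KO 1 to 3, against -0.20, -0.16 and -0.23 in F/F 1 to 3. The constitutive subunits are short, with a median length implied by the FPKM values of 1420 bases (731 to 3256), beside 2855 for the genes tested. After each library's length trend was removed, 26 members fell and 3 rose, where 19.4% of all genes tested fell and 18.9% rose. Of the 31 constitutive subunits 23 fell, with a median log2 fold change of -0.17. Psmc3 was the one that lost its call.

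**Figure D4:**
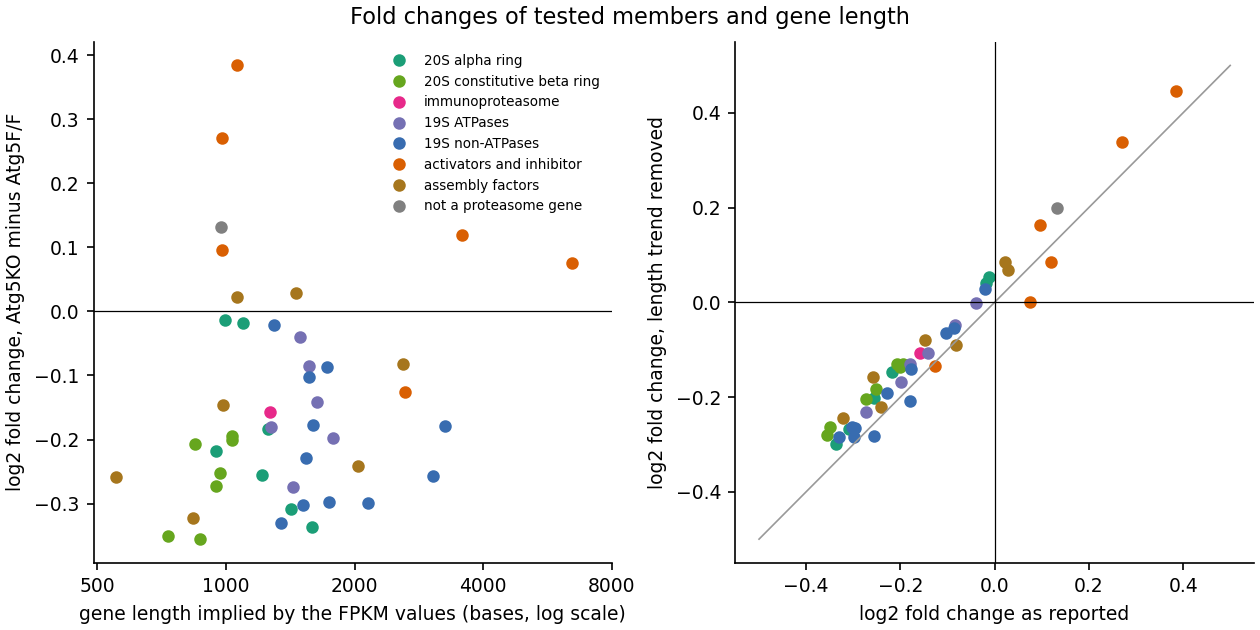
Left, log2 fold change (Atg5KO minus Atg5F/F) of each tested member against its length in bases (log axis); right, the same fold change after removal of each library's length trend against the value as reported, with the line of equality. Points of the 20S and 19S classes move toward 0 but most stay negative, with a median of -0.17 after removal.

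The plot against length shows how much of each fold change remained. The median of the beta ring was -0.18 after removal, beside -0.25 as reported (-0.17 when KO 3 was left out instead), and that of the alpha ring -0.15, beside -0.22. Psme2 and Psme2b remained the members with the largest increases.

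Genes outside the Psm symbols were read from lists of proteasome biology. Of 13 tested partners of the proteasome, 2 fell and none rose (median log2 fold change -0.04), where 17.9% of all genes tested fell, 21.3% rose and the median was 0.02. Adrm1, a ubiquitin receptor of the 19S cap, had 71.2, 75.2 and 67.9 FPKM in KO 1 to 3, against 92.1, 96.8 and 94.6 FPKM in F/F 1 to 3 (log2 fold change -0.40, SE 0.045, adjusted p = 2.3e-04, limma). Its log2 fold change lay further below 0 than that of any tested Psm gene. Zfand2a, an arsenite-inducible partner of the cap, averaged 42.3 FPKM in KO-labelled and 49.8 FPKM in F/F-labelled libraries (log2 fold change -0.23, SE 0.049, adjusted p = 0.0057). Pomp, which matures the 20S core, averaged 99.2 FPKM in KO-labelled and 110.1 FPKM in F/F-labelled libraries and was not called (log2 fold change -0.15, SE 0.062, adjusted p = 0.08).

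The list of NRF1 and NRF2 control had 4 of 14 genes higher and 3 lower, with a median of -0.02, beside 21.3% and 17.9% of all genes tested. Leaving out any 1 library left 2 or 3 higher and 2 lower. Over all 11559 genes tested, leaving out 1 library gave 1779 to 2179 higher and 1486 to 1943 lower. Nfe2l1 itself averaged 139 ± 4.33 FPKM in KO-labelled and 133 ± 7.28 FPKM in F/F-labelled libraries and Nfe2l2 104 ± 4.41 FPKM in KO-labelled and 106 ± 4.83 FPKM in F/F-labelled libraries, and both overlapped between groups (adjusted p = 0.36 and 0.69). Maff, a small partner of NRF factors, rose (0.40, adjusted p = 1.3e-04). Syvn1, a ubiquitin ligase of the endoplasmic reticulum, fell (-0.23, adjusted p = 0.0035). Fbxw7, part of a ubiquitin ligase, rose by 0.21 (adjusted p = 0.019), with 0.059 without KO 1, 0.063 without KO 3, 0.055 without F/F 2, 0.056 without F/F 3 and 0.053 with the length trend removed. Mafk, another small Maf partner, rose (0.17, adjusted p = 0.011).

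NRF2 targets outside the proteasome moved in both directions: 7 of 12 fell and 3 rose, with a median of -0.19. Over all genes tested, 17.9% fell and 21.3% rose. Hmox1, which degrades haem, averaged 249 FPKM in KO-labelled and 410.4 FPKM in F/F-labelled libraries (log2 fold change -0.72, SE 0.049, adjusted p = 1.7e-05). Srxn1, which repairs peroxiredoxins, fell (-0.65, adjusted p = 1.7e-05), as did glutathione reductase Gsr (-0.48, adjusted p = 1.3e-04). Gclc, the catalytic subunit of glutathione synthesis's first step, averaged 429 FPKM in KO-labelled and 271 FPKM in F/F-labelled libraries and rose (log2 fold change 0.66, SE 0.050, adjusted p = 2.7e-05). Without any 1 library, 6 or 7 fell and 2 or 3 rose.

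Among ubiquitin genes and activating enzymes, 2 of 6 fell and 1 rose (median -0.14), beside 17.9% and 21.3% of all genes tested. The main activating enzyme Uba1 fell (-0.19, adjusted p = 0.0028), with an adjusted p of 0.072 after quantile normalization, and the second one, Uba6, rose (0.26, adjusted p = 0.01). Without any 1 library, 1 to 3 fell and 1 rose. Of 12 shuttles and partners of p97, 4 fell and 3 rose (median -0.09), and without any 1 library 3 or 4 fell and 0 to 2 rose. The shuttle Rad23b, which brings ubiquitinated proteins to the cap, fell (-0.19, adjusted p = 0.0038), with an adjusted p of 0.059 after quantile normalization. The p97 partners Nsfl1c (-0.15, adjusted p = 0.023) and Ubxn4 (-0.15, adjusted p = 0.0087) fell too, Nsfl1c with 0.065 without KO 1, 0.0504 without KO 3, 0.054 without F/F 2 and 0.067 with the length trend removed.

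Class I antigen presentation, which uses peptides cut by the proteasome, had 5 of 13 genes higher and 4 lower (median 0.03), and without any 1 library 3 to 5 higher and 4 lower. With all libraries, 21.3% of all genes tested rose and 17.9% fell. Tap1, a peptide transporter whose gene neighbours Psmb8 and Psmb9, had 14.7, 15.5 and 14.4 FPKM in KO 1 to 3, against 10.6, 11.002 and 10.3 FPKM in F/F 1 to 3 (log2 fold change 0.45, SE 0.048, adjusted p = 1.8e-04). Tapbp, the tapasin gene, rose (0.39, adjusted p = 0.0012), as did the transcription factor Irf1 (0.39, adjusted p = 0.0015). The chaperone Calr fell furthest, averaging 209 FPKM in KO-labelled and 408 FPKM in F/F-labelled libraries (log2 fold change -0.96, SE 0.042, adjusted p = 2.1e-06).

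Totals implied by the FPKM values were 16922491 to 19724355 reads in KO-labelled and 15528454 to 30004933 in F/F-labelled libraries, so Psmb8, with at most 39 reads a library, is measured far less precisely than the constitutive subunits. Atg5 had 13.3, 11.5 and 12.7 FPKM in KO 1 to 3, against 8.76, 8.95 and 7.94 FPKM in F/F 1 to 3 (log2 fold change 0.50, SE 0.066, adjusted p = 5.5e-04), a value over the whole gene. The deleted part is not given in the labels, so this value does not check the deletion, and the groups are named by their labels throughout. Of 14 proximal tubule markers 8 stayed below 1 FPKM in all libraries, and the summed level of the 14 was 267 to 298 FPKM in KO-labelled and 366 to 390 FPKM in F/F-labelled libraries. Of the 6 tested, 4 fell and 1 rose, beside 17.9% and 21.3% of all genes tested. Ggt1 averaged 54.4 FPKM in KO-labelled and 127 FPKM in F/F-labelled libraries, and Lrp2 35.4 and 54.4 FPKM in that order. Aqp1 rose, from 22.3 FPKM in F/F-labelled to 28.6 FPKM in KO-labelled libraries. Cdh6 was not called, at 156 FPKM in KO-labelled and 158 FPKM in F/F-labelled libraries. Fibroblast and mural markers summed to 229 to 287 FPKM in KO-labelled and 65.9 to 72.3 FPKM in F/F-labelled libraries, carried by Acta2 and Tagln, with 8 of 10 below 1 FPKM. Endothelial markers summed to 5.74 to 7.31 FPKM in KO-labelled and 9.37 to 10.8 FPKM in F/F-labelled libraries, carried by Kdr, and all 8 distal tubule markers were below 0.1 FPKM. The part of these differences in the proteasome results was not tested.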

How the data were processed

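RNA was sequenced from 6 libraries of primary mouse proximal tubular cells, 3 a group, with a stranded mRNA kit, per the labels. The authors trimmed reads with Trimmomatic 0.35, aligned them with HISAT2 2.1.0 to GRCm38 (mm10), counted with featureCounts 1.4.6 and used edgeR, per the submitters' processing notes; no source used here gives the annotation, strand setting or treatment of multi-mapping reads. They deposited FPKM per gene, with their own log2 fold changes and p-values in the deposited table, used here only for Psmb8, Psmb9 and Psmb10. A ranking score that the authors deposited was not used.

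Differences were fitted with limma 3.58.1 (R 4.3.3; Python 3.11.15, pandas 2.3.3 and numpy 2.4.6 for tables) on log2(FPKM + 1), with a variance trend, on genes of at least 1 FPKM in at least 3 libraries, and adjusted by Benjamini-Hochberg over 11559 genes. The FPKM values of all 18296 genes above 0 gave whole reads in every library (100% within 0.01 reads), so voom on those reads was run as an alternative; it called 2802 genes higher and 2261 lower. Each result was recomputed with the replicate number as a block, without each of the 6 libraries, after median-ratio or quantile scaling, with a smaller pseudocount (0.1), with genes kept at any level or only from 5 FPKM, after subtracting a loess curve of deviation on gene length (span 0.5) from every library, and with robust variance. The fit was tested on simulated data.

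Members and lists were chosen with earlier results of these data known. The members given with all 6 values are the immunoproteasome genes and the subunits they replace, and in each other class the called members with the 4 largest absolute log2 fold changes. From each list up to 4 called genes were named by the same measure; Nfe2l1, Nfe2l2, Pomp and Shfm1, and the 6 values of Adrm1 and Tap1, were added after their values were seen. Atg5 is given as the targeted gene. Some genes that this rule names are not reported here. Coordinates and overlaps are from GENCODE vM21 (GRCm38). Shares of exonic bases over 10% on either strand were found for 6 members. Beside those given above, they were Psmb7 (11.8%, with Nek6), Psmd13 (10.1%, with Sirt3) and Psmc3ip (21.2%, with Mlx), all antisense. These also have more exonic bases there than the FPKM values imply, so the shares among counted bases are not known. Paaf1 is not analysed here. Counts and intervals of reads cover counting error only.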

Additional observations from a re-analysis of the deposited data

How the results depend on the processing

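Of 29 called members, 19 kept their call under all 15 alternatives. Leaving out 1 library gave 1 to 2 members higher and 19 to 27 lower, 1 and 19 without F/F 3. Same-numbered libraries did not deviate together (correlations 0.16, 0.08 and -0.02), and a replicate block for pairing gave 2 higher and 28 lower. The median log2 fold change of the alpha ring was -0.16 after quantile normalization and -0.15 with the length trend removed. That of the ATPases was -0.10 and -0.12 under the same settings and -0.19 to -0.14 without 1 library; that of the non-ATPases was -0.19 and -0.21, -0.25 with median-ratio scaling and -0.25 to -0.20 without 1 library. Without 1 library the median of the beta ring ran from -0.31 to -0.17, nearest 0 without KO 3; that of the assembly factors was -0.08 without KO 3, beside -0.15. With no filter the immunoproteasome median was 0.21, because Psmb8 and Psmb9 then enter. The difference between the groups (Atg5KO minus Atg5F/F) in the log2 ratio of Psmb10 to Psmb7 was -0.020 after quantile normalization and -0.085 to 0.17 without 1 library, the lowest without KO 2. Members near 0 changed sign. After quantile normalization the log2 fold change was 0.049 for Psma4, 0.051 for Psma6, 0.029 for Psmc1 and 0.026 for Psmd6, and with the length trend removed 0.041 for Psma4, 0.054 for Psma6 and 0.028 for Psmd6. Without 1 library it ran from -0.041 to 0.015 for Psma4, -0.058 to 0.053 for Psma6, -0.30 to 0.0034 for Psmb10, -0.060 to 0.021 for Psmd6, -0.036 to 0.089 for Psmd10 and -0.027 to 0.074 for Psmg2. The causes were not tested. Ratios for Psmb8 and Psmb9 after quantile normalization or length removal were not run, since neither gene passed the filter. Depth limits Psmb8, Psmb9, Psma8 and Psmb11, and groups of 3 were too small to look for outlying libraries.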
